A study of Mus musculus with 34 samples.

Results

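CpG islands that lie inside genes were described across 34 mouse DNA samples measured on a CpG island array. An island was a run of at least 3 array probes with gaps of at most 500 bases, and it was taken as lying inside a gene where the most common annotation of its probes on the array was INSIDE. Of 13616 islands that were scored on every array, 7514 on the autosomes met this rule, in 6706 named genes. A further 188 islands of the same class on the X and Y chromosomes were left out, and 895 autosomal islands in which INSIDE tied with another annotation were not counted. The islands held a median of 6 probes and spanned a median of 697 bases, and 79.7% of their 52912 probes were annotated INSIDE. The annotation covers islands that begin at a promoter as well as islands deep in a gene body. For 5814 islands (77.4%) the nearest probe was within 200 bases of a listed transcript start, for 344 (4.58%) it was 201 to 1000 bases away, for 504 (6.71%) 1001 to 5000 bases away, and for 852 (11.3%) over 5000 bases away. Exons and introns were not separated, since gene models of the build of the array were not analysed here.

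The study compared the methylation of normal mouse tissues with that of embryonic stem (ES) cells, of cells differentiated from them and of cultured lines. DNA was sheared, methylated fragments were pulled down with an antibody against 5-methylcytidine (mDIP), and bound DNA in the red dye was hybridised against input DNA in the green dye, 1 array for each sample. Adult tissue was represented by 16 arrays, 2 each of colon, pancreas, brain, kidney, liver, lung, muscle and spleen, from C57Bl/6 mice of 3 months. Colon and pancreas arrays were all from males, lung arrays from females, and each remaining tissue had 1 array of each sex. The embryos were 5 samples, labelled 8.5, 9.5, 10.5, 11.5 and 12.5 days. Undifferentiated ES cells were the lines EB5, J1 and TT2, 1 array each. Differentiated ES cells were 5 samples, which were embryoid bodies from TT2, cells treated with retinoic acid (from TT2 by the label, from J1 by the methods), 2 samples of endoderm and 1 of mesoderm, all 3 from EB5. The endoderm and mesoderm cells were a single targeted derivative of EB5 with reporters at Gsc and Sox17, grown as a monolayer with activin A and sorted on those reporters. The 2 teratomas were labelled as generated from J1, while the methods name other ES lines, and they were grown in NOD-SCID mice, so host tissue may be present. Ex vivo β cells were sorted from pooled islets of Pdx1-GFP mice aged 2 to 8 months with an antibody to insulin, and Min6 and aTC are lines of pancreatic β and α cells. The labels do not say that replicates came from separate animals or cultures, so p-values measure only the spread between these samples. Identity of the tissues could not be checked against marker genes, since only DNA was measured.

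A CpG island is a stretch of DNA rich in CG dinucleotides, and such stretches lie at the promoters of most broadly expressed genes, where they are usually free of methylation. Islands within gene bodies are more often methylated in normal tissue, and those of imprinted genes carry methylation on the copy from a single parent. Methylation of a promoter island goes with a silent gene, while methylation within a transcribed body does not have that association.

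Sequences of 5 promoter windows show what kind of DNA the islands at gene starts hold, and these genes recur below. Each window runs from 250 bases before to 50 after a RefSeq transcript start on GRCm38.p6, 5′ to 3′ on the strand of the gene, and capitals mark CG dinucleotides. They are Peg3 (chr7:6730370-6730669, minus strand) and Zrsr1 (chr11:22971755-22972054, plus strand), imprinted genes whose islands were lower in ES cells; Hsf5 (chr11:87616914-87617213, plus strand), whose island was methylated in all adult tissues; Atf7ip (chr6:136518601-136518900, plus strand), whose island was higher in ES cells; and Dtl (chr1:191575495-191575794, minus strand), whose island was unmethylated on all arrays.
Peg3: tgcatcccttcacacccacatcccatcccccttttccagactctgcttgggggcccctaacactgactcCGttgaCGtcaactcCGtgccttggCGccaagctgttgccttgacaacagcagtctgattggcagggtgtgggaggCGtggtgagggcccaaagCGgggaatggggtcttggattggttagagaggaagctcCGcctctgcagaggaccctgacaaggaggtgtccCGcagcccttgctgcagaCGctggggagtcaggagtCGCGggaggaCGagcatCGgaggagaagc
Zrsr1: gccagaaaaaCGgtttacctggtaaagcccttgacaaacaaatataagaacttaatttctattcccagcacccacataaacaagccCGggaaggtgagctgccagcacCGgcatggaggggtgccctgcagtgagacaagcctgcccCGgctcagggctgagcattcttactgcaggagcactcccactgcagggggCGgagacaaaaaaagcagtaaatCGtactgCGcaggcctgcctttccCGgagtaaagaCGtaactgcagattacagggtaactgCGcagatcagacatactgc
Hsf5: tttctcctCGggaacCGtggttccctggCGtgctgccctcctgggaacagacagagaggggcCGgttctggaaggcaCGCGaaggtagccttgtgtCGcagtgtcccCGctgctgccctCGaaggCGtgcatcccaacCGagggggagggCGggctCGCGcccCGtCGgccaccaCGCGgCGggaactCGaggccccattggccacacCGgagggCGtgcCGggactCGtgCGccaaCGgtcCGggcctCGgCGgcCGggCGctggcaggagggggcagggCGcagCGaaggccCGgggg
Atf7ip: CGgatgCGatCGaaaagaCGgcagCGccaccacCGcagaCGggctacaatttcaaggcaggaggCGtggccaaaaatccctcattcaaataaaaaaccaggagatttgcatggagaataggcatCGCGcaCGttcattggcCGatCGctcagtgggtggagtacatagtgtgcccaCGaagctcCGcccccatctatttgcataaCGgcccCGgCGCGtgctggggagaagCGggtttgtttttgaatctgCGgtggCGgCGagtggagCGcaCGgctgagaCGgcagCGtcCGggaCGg
Dtl: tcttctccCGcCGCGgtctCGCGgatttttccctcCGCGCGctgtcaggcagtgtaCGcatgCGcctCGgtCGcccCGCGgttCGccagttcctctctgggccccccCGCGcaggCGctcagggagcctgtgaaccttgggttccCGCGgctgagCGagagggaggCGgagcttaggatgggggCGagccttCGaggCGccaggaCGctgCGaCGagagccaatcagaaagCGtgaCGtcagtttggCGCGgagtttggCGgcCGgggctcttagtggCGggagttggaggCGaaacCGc
The windows hold 13, 10, 34, 29 and 37 CG dinucleotides in that order, so the Hsf5 island was methylated although its window is as rich in CG as that of Dtl or Atf7ip. Among 3013 inside islands whose start has such a window, the median was 23 CG per window, against 7 over all 32851 RefSeq windows. The median was 23 for 1169 islands below 0 on every adult array, 17 for 27 islands above 0.75 on every adult array, 20 for 357 islands higher in differentiated ES cells and 26 for 199 that were lower there.

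The measure is the island methylation score, the mean over the probes of an island of the log10 ratio of bound to input DNA after each array was set to mean 0 and SD 1. It is therefore in units of the SD of the array and relative to the other islands on it. With the limits of the study, an island below 0 was called unmethylated and an island above 0.75 methylated. The study set these limits on Z scores taken according to probe melting temperature, which was not done here. The classes are therefore not those of the study. Scores of the inside islands correlated at r = 0.859 to 0.968 between the 2 arrays of a tissue and at 0.852 to 0.965 between arrays of different tissues, as a description over islands. The median input signal was 3.07 to 7.34 times background, and 62.4% to 99.9% of probes had an input well above background. The arrays came from 23 slides and 16 scan days and were read with 4 software versions, with all adult arrays on 1 version and 4 of 5 embryo arrays on another.

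The array labelled J1 stood apart from both other undifferentiated ES arrays. Over the inside islands it correlated at r = 0.966 with the median of the adult arrays, whereas EB5 and TT2 did so at 0.822 and 0.826. EB5 and TT2 correlated with each other at 0.900 and with J1 at 0.803 and 0.812. Over 3547 inside islands that could be scored from the deposited value table as well, the table and the scanner file of J1 correlated at only 0.197, while the lowest value for any other array was 0.955. The J1 column of the table correlated at most at 0.273 with the scanner file of any array (EB5). Counts from the deposited table use that column. Which sample the scanner file labelled J1 measured was not tested. Results on undifferentiated ES cells are therefore given with and without the array labelled J1.

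Inside islands had higher scores the farther they lay from a transcript start. In adult tissue the median score was -0.27 ± 0.03 (SD over 16 arrays) within 200 bases of a start, -0.12 ± 0.06 at 201 to 1000 bases, 0.34 ± 0.15 at 1001 to 5000 bases and 1.86 ± 0.21 beyond 5000 bases. The share of islands called methylated followed the same order, at 3.23%, 18.4%, 40.9% and 68.2% on the mean adult array. Over all zones 13.8% ± 0.947 (SD) of inside islands were methylated on an adult array, against 4.18% of 2394 islands that lie at a promoter alone. Embryos had the same order, with medians of -0.22, -0.15, 0.07 and 1.79, as did teratomas with -0.25, -0.10, 0.35 and 1.86 and ex vivo β cells with -0.24, -0.04, 0.42 and 1.72.

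**Figure D1:**
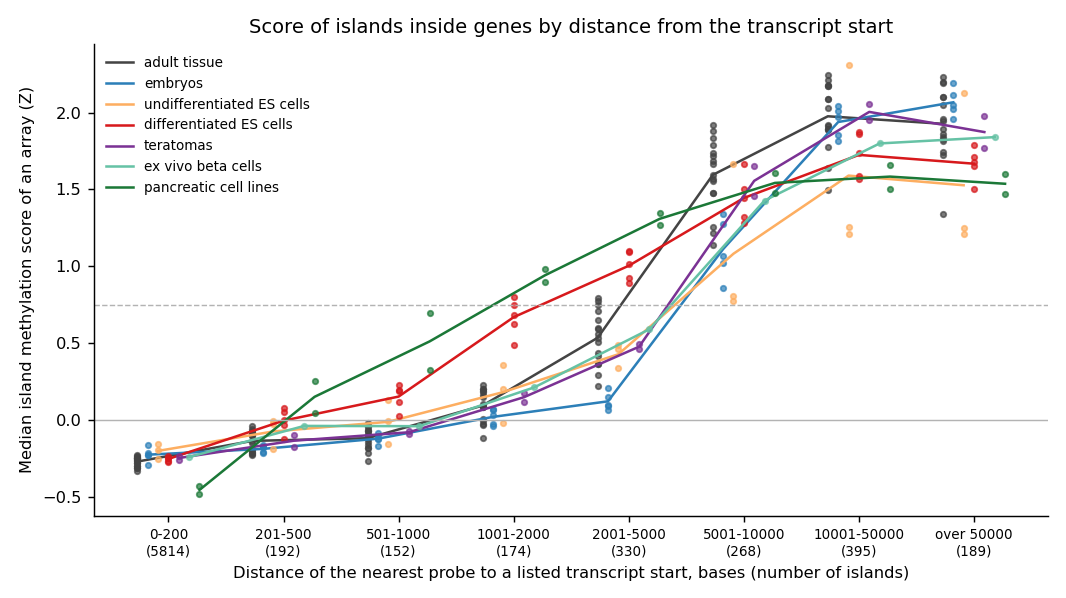
Median island methylation score of the inside islands (y axis, SD units of the array) by distance of the nearest probe to a listed transcript start (x axis, 8 bins with the number of islands), with 1 point per array and lines through the class means. At 1001 to 2000 bases the class means are 0.10 in adult tissue and 0.67 in differentiated ES cells, and at 2001 to 5000 bases 0.54 in adult tissue and 0.12 in embryos.

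Differentiated ES cells and the pancreatic lines departed from this profile between 201 and 5000 bases. At 201 to 1000 bases differentiated ES cells had a median of 0.07 ± 0.06 (SD, n = 5, range -0.004 to 0.15). This was above every adult array (-0.23 to -0.03), and 25% of these islands were methylated. At 1001 to 5000 bases differentiated ES cells had a median of 0.87 ± 0.08 (range 0.75 to 0.94). This too was above every adult array (0.08 to 0.60), and 53.5% of these islands were methylated. Beyond 5000 bases their median was 1.63 ± 0.13, below the adult mean of 1.86. The lines Min6 and aTC averaged 0.28 at 201 to 1000 bases, 1.21 at 1001 to 5000 bases and 1.56 beyond 5000 bases. Over all inside islands, 17.7% ± 1.76 were methylated on a differentiated ES array (14.6% to 18.9%), 12.1% on an embryo array, 12.6% on an undifferentiated ES array and 23.5% in the lines. Over all 13616 islands these shares were 15.6%, 10.9%, 10.8% and 21.3%. The 99th percentile of the inside scores averaged 2.76 ± 0.39 in differentiated ES cells and 2.22 in the lines, against 3.31 ± 0.28 in adult tissue. It was 3.43 in retinoic acid cells and 2.39 to 2.71 on the other differentiated ES arrays, and the part of this in the lower scores beyond 5000 bases was not tested.

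The same contrast held within single genes. In 293 genes with an inside island within 200 bases of a listed start and another beyond 5000 bases, 355 pairs could be formed, and the far island was higher than the near island on all 16 adult arrays in 256 of them. The near islands averaged -0.18 and the far islands 1.94 in adult tissue, -0.25 and 2.00 in embryos, and -0.15 and 1.72 in differentiated ES cells. Setting inside islands against a promoter island of the same gene gave 747 pairs in 523 genes with a median difference of 0.212 in adult tissue. Here too the distance mattered, with a median difference of -0.07 in 262 pairs within 200 bases of a start and 1.71 in 213 pairs beyond 5000 bases. The largest difference was in Myo10, an unconventional myosin gene, whose inside island averaged 3.58 ± 0.48 (SD, n = 16) and whose promoter island -0.35 ± 0.23 in adult tissue. Plec, which encodes the cytoskeletal linker plectin, and Zscan2, a zinc finger gene, followed with differences of 3.88 and 3.87. At the other end was Gtpbp3, a gene of mitochondrial tRNA modification, with -0.28 ± 0.16 at the inside island and 2.68 ± 0.26 at a promoter island.

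Islands at either end of the adult range were of different genes and positions. On all 16 adult arrays 2310 inside islands (30.7%) were below 0, against 29.8% of all islands, and 738 were above 0.75, where the share over all islands was 7.37%. The steadily unmethylated class took in 37.1% of the islands within 200 bases of a start and 3.17% of those beyond 5000 bases, and the steadily methylated class 1.6% and 54.0%. The lowest islands were at the starts of Mcm5, a subunit of the replicative helicase (adult lowest, median and highest -1.39, -1.10 and -0.76), Luc7l, a splicing factor gene (-1.17, -0.91 and -0.72), and Dtl, which recruits substrates to a ubiquitin ligase (-1.25, -0.98 and -0.68). These 3 islands were below 0 on every one of the 34 arrays. The highest were deep in Shroom3, a regulator of apical constriction (3.01, 3.70 and 4.68), Zfp282, a zinc finger gene (3.05, 3.64 and 4.51), and Scaf1, which encodes a splicing-associated factor (3.02, 3.47 and 4.28). Zfp282 was high on the array labelled J1 (4.13) as in adult tissue and near 0 in EB5 (-0.00) and TT2 (0.18), while the 5 differentiated ES arrays ran from 0.67 to 2.61.

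Differentiated ES cells were compared with adult tissue to ask at which islands cells differentiated from ES cells in culture differ in methylation from normal tissue. In a limma fit over all islands, 1015 inside islands (13.5%) were higher and 725 (9.65%) lower in differentiated ES cells at an adjusted p under 0.05, where the shares over all islands were 14.4% and 8.73%. The arrays of both classes did not overlap at 183 of the higher islands and 81 of the lower, where 2.51% and 0.896% of all islands did so. These shares were close to those over all islands, while the zones differed among themselves. Islands at 1001 to 5000 bases were higher in 25.6% (129) and lower in 13.7% (69), whereas islands beyond 5000 bases were higher in 11.9% (101) and lower in 23.1% (197). At 201 to 1000 bases 20.9% were higher and 10.5% lower, and within 200 bases 12.3% and 7.28%. Differences between zones were not themselves tested.

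**Figure D2:**
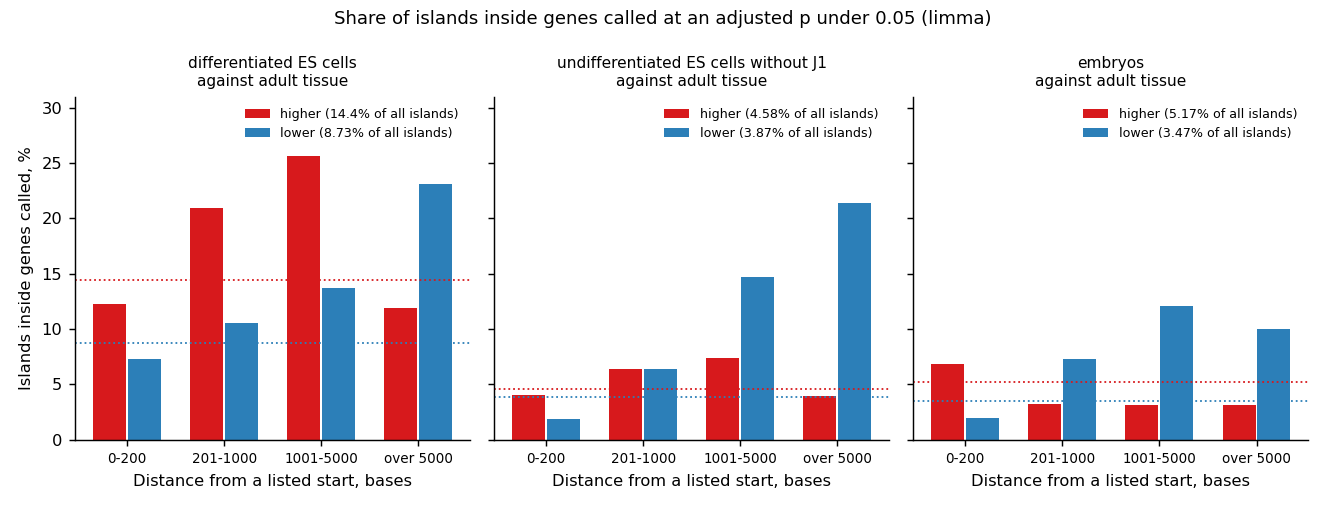
Percent of inside islands (y axis) higher and lower at an adjusted p under 0.05 in limma, by zone of distance to the nearest transcript start (x axis), for differentiated ES cells, undifferentiated ES cells without J1 and embryos, each against adult tissue, with dotted lines at the share of all islands. In differentiated ES cells the higher share peaks at 1001 to 5000 bases (25.6%) and the lower share beyond 5000 bases (23.1%).

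Levels show what the calls amount to. Of the 1015 higher islands, 697 had an adult mean below 0 and 129 went from below 0 to above 0.75, and their median moved from -0.16 to 0.51. In the zone at 1001 to 5000 bases the median of the 129 higher islands moved from -0.09 to 0.86, and 34 of them crossed from below 0 to above 0.75. Beyond 5000 bases the 197 lower islands moved from a median of 2.80 to 2.08, so 166 of the 184 that were methylated in adult tissue stayed above 0.75. The share higher minus the share lower in that zone was -11.3 points, and it turned to 3.52 after another background correction of the signals. At 1001 to 5000 bases it was 11.9 points and stayed between 2.38 and 16.3 under the alternatives run. On the 2 slides that carried a differentiated ES and an adult array side by side, 96.75% and 93.1% of the higher islands and 97.38% and 91.31% of the lower islands differed in the same direction, for endoderm 2 against pancreas 1 and embryoid bodies against brain 2. These arrays were among those in the fit that called the islands, so the shares are a description.

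The 5 higher islands with the largest differences had scores of at most 0.26 on every adult array, below the limit for a methylated call. At Atf7ip (chr6:136467067-136467757 on mm9, 6 probes at the start), which encodes a partner of a histone H3K9 methyltransferase, the adult lowest, median and highest were -0.70, -0.18 and 0.10. Embryoid bodies, retinoic acid cells, endoderm 1, endoderm 2 and mesoderm had 2.00, 3.08, 2.94, 1.88 and 1.42 (difference 2.47 ± 0.284 SE, adjusted p = 1.76e-07). The same island was at 2.79 in EB5 and 2.57 in TT2 before differentiation, -0.29 on the array labelled J1, and 1.24 and 1.44 in the teratomas. Both teratoma arrays were thus above all adult arrays at this island, as were the differentiated ES arrays, for which the picking rule required it.

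Slitrk1, a neuronal membrane protein gene that shapes neurite growth, had an island 1763 bases from the start (chr14:109310483-109310754 on mm9, 3 probes) with adult values of -1.30, -0.42 and 0.14. The differentiated ES arrays, in the order above, were at 1.85, 1.79, 2.02, 2.24 and 1.66 (difference 2.36 ± 0.252, adjusted p = 6.14e-08), and EB5 and TT2 were at 1.84 and 1.89 already. Teratomas were at -0.35 and -0.38, inside the adult range. Mmp9, a secreted protease of the extracellular matrix, had an island 896 bases from the start (chr2:164774623-164775362 on mm9, 7 probes) with adult values of -0.78, -0.24 and 0.19. Its differentiated ES values were 2.34, 2.30, 2.08, 2.13 and 1.49 (difference 2.33 ± 0.175, adjusted p = 1.24e-10). EB5, J1 and TT2 were at 0.90, -0.12 and 1.62, and the difference between differentiated and undifferentiated ES cells was 1.27 ± 0.25 (adjusted p = 0.00285). Tfap2e, a transcription factor gene of the AP-2 family, had an island 3412 bases from the start (chr4:126409556-126409970 on mm9, 5 probes) with adult values of -0.59, -0.25 and 0.26. It was at 2.01, 2.10, 2.12, 2.61 and 1.64 in differentiated ES cells (difference 2.32 ± 0.173, adjusted p = 1.24e-10), and 1.58 above the undifferentiated ES cells (adjusted p = 0.00036). Mmp9 and Tfap2e were therefore higher after differentiation than before, while Slitrk1 and Atf7ip had no called difference between those classes. Slc32a1, the vesicular transporter of inhibitory neurotransmitters, completed the set at 2.35 ± 0.239 (adjusted p = 2.65e-08).

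**Figure D3:**
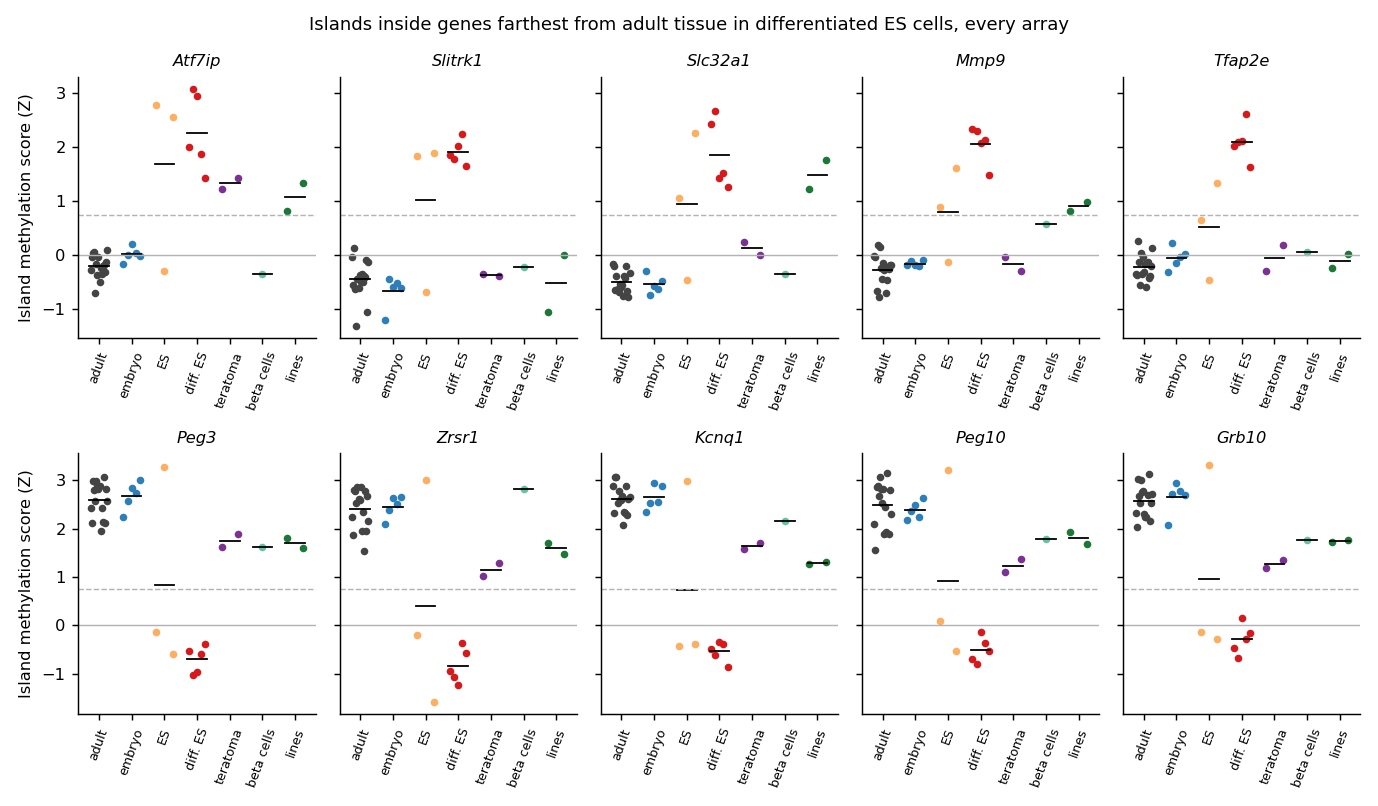
Island methylation score (y axis, SD units) of every array, by class (x axis), at the inside islands farthest above (upper panels) and below (lower panels) adult tissue in differentiated ES cells, with bars at class means and lines at 0 and 0.75. At all 10 the 5 differentiated ES arrays lie outside the range of the 16 adult arrays, which the rule that picked these islands required.

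The 5 lower islands with the largest differences were all in imprinted genes, which adult tissue methylates on a single parental copy. At Peg3, a zinc finger gene expressed from the paternal copy (chr7:6682111-6683212 on mm9, 9 probes), the adult lowest, median and highest were 1.95, 2.69 and 3.07, and the embryos lay between 2.24 and 3.00. Differentiated ES arrays were at -0.53, -1.03, -0.97, -0.60 and -0.39 (difference -3.30 ± 0.327, adjusted p = 1.73e-08). EB5 and TT2 were at -0.15 and -0.61, the array labelled J1 at 3.27 and the teratomas at 1.61 and 1.89. The island thus read as unmethylated in EB5, TT2 and all 5 differentiated ES samples. It read as methylated in embryos, in adult tissue and on the array labelled J1.

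Kcnq1, a potassium channel gene, had its island about 188000 bases into the gene (chr7:150481208-150482535 on mm9, 8 probes), with adult values of 2.07, 2.60 and 3.07. The differentiated ES arrays were at -0.49, -0.61, -0.34, -0.39 and -0.86 (difference -3.14 ± 0.295, adjusted p = 6.41e-09). The island at the start of the same gene went the other way, higher by 0.74 (adjusted p = 3.4e-05). At Grb10, an adaptor that restrains growth signalling, the island lay 11040 bases from the start of the gene (chr11:11925467-11926345 on mm9, 10 probes), with adult values of 2.02, 2.61 and 3.12. Differentiated ES values were -0.47, -0.67, 0.16, -0.28 and -0.16 (difference -2.86 ± 0.315, adjusted p = 1e-07), while its start island had a difference of 0.19 (adjusted p = 0.3). In both genes the internal island and the start island were thus set apart. Zrsr1, a retrogene within Commd1 (chr11:22872000-22873052 on mm9), and Peg10, a gene derived from a retrotransposon (chr6:4697308-4698444 on mm9), differed by -3.25 ± 0.363 (adjusted p = 1.15e-07) and -2.99 ± 0.333 (adjusted p = 1.11e-07). All 5 differentiated ES arrays were below 0 at both. In ex vivo β cells Zrsr1 was at 2.82 and Peg10 at 1.79, within their adult ranges of 1.53 to 2.86 and 1.56 to 3.16.

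Imprinted genes as a list had 33 inside islands in 26 genes, of which 18 were lower and 3 higher in differentiated ES cells, where 8.73% and 14.4% of all islands were so called. Their median difference was -1.19 against -0.02 over all inside islands. Undifferentiated ES cells had 15 lower, or 18 without the array labelled J1, where 1.31% and 3.87% of all islands were lower. Of the 18 islands lower in differentiated ES cells, 17 had an adult mean above 0.75, the exception being Blcap at -0.33. Their array medians were 2.05 to 2.98 in adult tissue and 2.13 to 2.89 in embryos. Among undifferentiated ES cells they were 0.05 (EB5), -0.07 (TT2) and 3.02 (the array labelled J1), then -0.10 in embryoid bodies, -0.48 in retinoic acid cells, 0.25 and 0.18 in endoderm and 0.32 in mesoderm. Teratomas (1.49 and 1.75), ex vivo β cells (1.57), Min6 (1.72) and aTC (1.54) lay between the ES cells and adult tissue. The 99th percentile of the inside scores was only 2.35 in Min6 and 2.10 in aTC, against a mean of 3.31 in adult tissue. The part of this in the medians of the lines was not tested. Which islands were below 0 differed among samples, with 10 in embryoid bodies, 12 in retinoic acid cells, 6 and 8 in endoderm and 7 in mesoderm.

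Further members, chosen after their values were seen, show how far the list was from uniform. Plagl1, Mest and Inpp5f, at -2.56, -2.43 and -2.06, were among the lower islands, as were Nnat (-1.93) and Cdkn1c (-1.37). Igf2r had 2 lower islands, at -2.53 and -1.19. Gnas, which encodes a G protein subunit, had 1 island at -2.30 and another at -0.42 that was not called (adjusted p = 0.3). At Nap1l5 embryoid bodies and retinoic acid cells were at 0.23 and -0.81 and endoderm and mesoderm at 1.76, 2.01 and 1.72, while EB5 and TT2 before differentiation were at 0.05 and -0.08. The 3 higher islands were at Phlda2 (0.28) and at the starts of Dlk1 (0.54) and Kcnq1. Islands of Ndn, Ube3a, Commd1, Copg2, H13, Ascl2 and Trappc9 were not called.

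**Figure D4:**
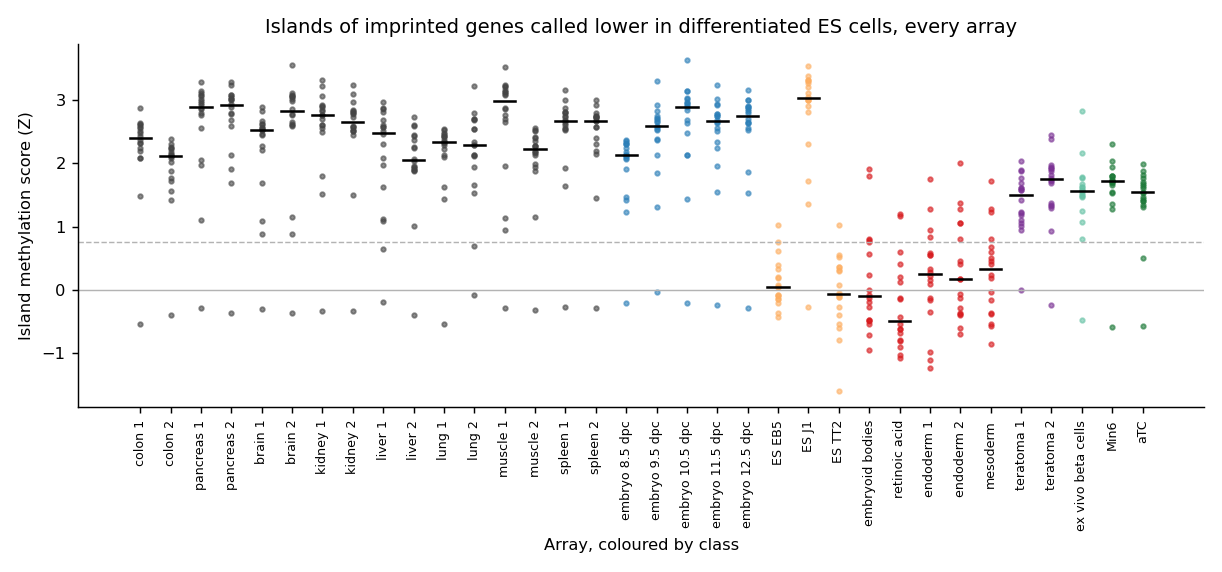
Island methylation score (y axis, SD units) of the 18 inside islands of imprinted genes that were lower in differentiated ES cells than in adult tissue, on each array (x axis, coloured by class), with 1 point per island and a bar at the array median. Adult arrays and embryos have medians of 2.05 to 2.98, EB5, TT2 and the differentiated ES arrays -0.48 to 0.32, and J1 3.02.

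Gene lists were counted in the same comparison. Each list count below is set beside the 1015 higher (13.5%) and 725 lower (9.65%) of all inside islands and their median difference of -0.02, and no list was tested as a set. Ion channel and neurotransmission genes had 51 higher and 25 lower of 194 islands (median difference 0.08), extracellular matrix and adhesion genes 25 and 10 of 97 (0.07), homeobox transcription factors 40 and 17 of 210 (0.02). Developmental signalling genes had 29 higher and 20 lower of 156 (-0.03) and other developmental transcription factors 27 and 20 of 164 (-0.02). The lists differed in distance as well. In the order given, 105, 65, 96, 78 and 89 islands lay within 200 bases of a start, beside 77.4% of all inside islands. At 1001 to 5000 bases lay 21, 8, 62, 22 and 28 islands, beside 6.71%. The part of distance in the list counts was not tested. Barhl1, a homeobox gene of the nervous system, was at 2.04, 1.81, 1.84, 1.92 and 2.00 in differentiated ES cells and at -0.997, -0.50 and 1.11 as the adult lowest, median and highest (difference 2.31 ± 0.289, adjusted p = 6.57e-07). Gdf7, a ligand of the bone morphogenetic protein family, differed by 1.24 (adjusted p = 1.05e-05).

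Further islands were singled out after their values were seen. The glycine transporter gene Slc6a5 was higher by 1.62, the potassium channel subunit gene Kcnab3 by 1.58, the dopamine receptor gene Drd4 and the vesicular glutamate transporter gene Slc17a7 by 1.42 each, and the laminin gene Lamc3 by 1.22. Lower islands of developmental genes included Hoxb3 (-1.74 and -1.70), Lhx6 (-1.52), Hoxa5 (-1.40) and Nfix (-1.84).

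Other lists leaned the opposite way or had few calls. Germline genes had 2 higher and 7 lower of 17 islands (-0.35). The meiotic genes Sycp1, Sycp2, Sycp3 and Spo11, with Ddx4, Dpep3 and Hsf5, were the lower ones, with differences of -0.63 to -0.96, and all 7 kept means above 1.9, so they stayed methylated. Their adult means lay near the upper end of the scale, which was lower on differentiated ES arrays other than retinoic acid cells. In retinoic acid cells Sycp1, Sycp3, Spo11 and Dpep3 were at 3.04, 3.02, 2.94 and 3.28, against adult means of 3.24, 3.03, 2.665 and 3.16. Sycp2, Ddx4 and Hsf5 were at 3.095, 2.84 and 2.43 there, against 3.525, 3.42 and 3.36. The part of the scale in these calls was not tested. Hsf5, a heat shock factor of the testis, had adult values of 2.69, 3.32 and 4.15 and a difference of -0.96 (adjusted p = 0.0172), with endoderm 1 the lowest differentiated ES array at 1.63. EB5 and TT2 were lower still, at 1.06 and 0.81. Chromatin and DNA methylation enzymes had 5 higher and 12 lower of 84 (-0.07). Tumour suppressors and cell cycle inhibitors had 5 and 6 of 42. An island of 4 probes in the Wilms tumour gene Wt1, 4207 bases from a start, was higher by 1.42 (adjusted p = 2.44e-05). The island of 15 probes at the start of Wt1 differed by 0.21 and was not called (adjusted p = 0.067). Ribosomal protein genes, which are expressed in all cells, had 0 higher and 2 lower of 38, the larger at Rpl35 (-0.47, adjusted p = 0.00277). All 38 of these islands lay within 200 bases of a start.

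Islands that were below 0 on all 16 adult arrays were followed into every other sample. Of these 2310 islands, 72 were above 0.75 on at least 1 differentiated ES array, 44 on at least 2 and 31 on at least 3. The 72 are 0.958% of the inside islands, and 0.881% of all islands met both conditions, so the shares were close. By array there were 35 in embryoid bodies, 16 in retinoic acid cells, 45 and 37 in endoderm and 34 in mesoderm, against 0 to 2 in each embryo, 3 in EB5, 9 in TT2, 0 on the array labelled J1, 2 and 3 in teratomas and 3 in ex vivo β cells. These gains fell on 2.27% of such islands within 200 bases of a start, 10.8% at 201 to 1000 bases, 27.3% (12) at 1001 to 5000 bases and 7.41% (2 of 27) beyond.

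**Figure D5:**
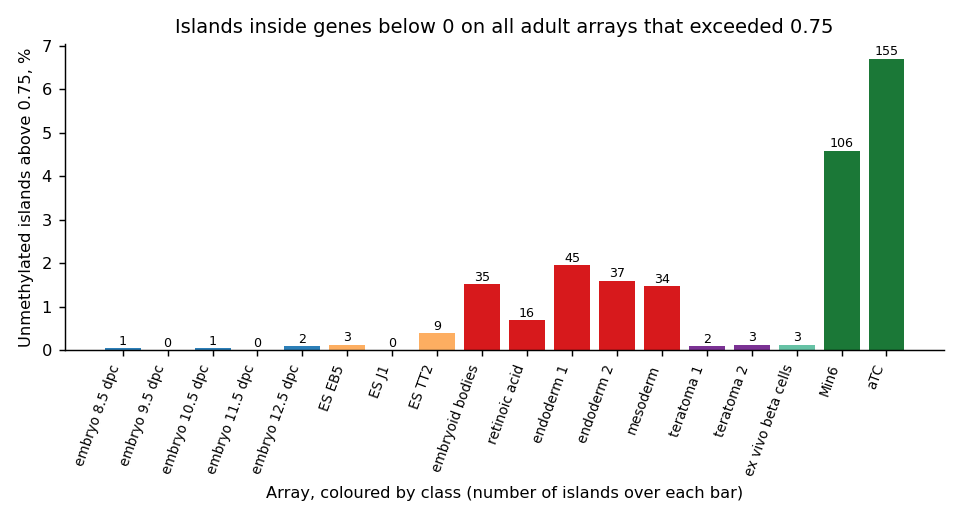
Percent (y axis) of the 2310 inside islands below 0 on all 16 adult arrays that were above 0.75, on each array outside adult tissue (x axis), with the number of islands over each bar. The 5 differentiated ES arrays have 16 to 45 islands, Min6 and aTC 106 and 155, and the remaining arrays 0 to 9.

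The pancreatic lines gained methylation at more of these islands, 106 (4.59%) in Min6 and 155 (6.71%) in aTC. In all, 167 were above 0.75 in a line and below 0 in ex vivo β cells as well, which is 2.22% of the inside islands, and 2.08% of all islands met these conditions. By zone the share was 5.94% within 200 bases, 30.1% at 201 to 1000 bases, and 11 of 44 islands at 1001 to 5000 bases and 3 of 27 beyond met them. With 1 array for each line these are values without a test, and both lines shared a slide. The largest excess over β cells was at Cdkn2a, the locus of the cell cycle inhibitors p16 and Arf, in an island 5254 bases from the nearest listed start. It was at -1.65 in β cells, 2.44 in Min6 and 2.14 in aTC, and the adult lowest, median and highest were -1.47, -0.93 and -0.17. Differentiated ES cells were split there at -0.95, 1.94, 0.94, -0.07 and 0.68 (difference from adult tissue 1.30 ± 0.26, adjusted p = 0.000347). Pou3f3, a neural transcription factor gene, was at -0.60 in β cells, 2.24 in Min6 and 2.08 in aTC, and below 0.75 on every other array. Nr2f1, an orphan nuclear receptor gene, was at -0.98 in β cells and 1.60 and 1.65 in the lines, but other adult tissues reached 2.61 (lowest -0.02, median 1.58). The β cells and the embryos, all below -0.4, were among the low samples there. In the limma fit without J1, EB5 and TT2 differed from adult tissue by -1.69 (adjusted p = 0.00464) at this island. Differentiated ES cells differed from EB5 and TT2 by only 0.17 (adjusted p = 0.88).

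Undifferentiated ES cells differed from adult tissue at 71 higher and 139 lower inside islands, where 0.984% and 1.31% of all islands were called. Without the array labelled J1 the counts were 326 and 387 (4.58% and 3.87% of all islands), and without EB5 or without TT2 they fell to 0 in limma, with 832 and 690 at an unadjusted p under 0.05. In the fit without J1, islands beyond 5000 bases were lower in 21.4% and higher in 3.99%, and islands within 200 bases were lower in 1.87% and higher in 4.01%. Gpr146, an orphan receptor gene, was at 2.56, 2.42 and 2.69 in EB5, J1 and TT2 against adult values of 0.61, 1.62 and 2.37 (difference 0.92 ± 0.241, adjusted p = 0.0387). Trak1, an adaptor of mitochondrial transport, was higher by 0.76 ± 0.19 (adjusted p = 0.0289). Hlx, a homeobox gene, was at -0.34, 0.84 and 0.22 against 1.05, 1.68 and 3.11 (difference -1.60 ± 0.362, adjusted p = 0.0169), and embryos (-0.14 to 1.05) were lower than adult tissue there as well. Lrp8, a reelin receptor gene, had a difference of -1.42 ± 0.331 (adjusted p = 0.0201). All 4 kept their calls without J1, at 0.98, 0.85, -1.90 and -1.66, but Gpr146 lost its call under 14 of 40 alternatives, Trak1 under 10 of 40, Hlx under 8 of 41 and Lrp8 under 9 of 41. The islands named for differentiated ES cells were already apart from adult tissue in EB5 and TT2, with differences without J1 of 2.88 at Atf7ip (adjusted p = 2e-09), 2.31 at Slitrk1 (4.08e-08), -2.98 at Peg3 (1e-09) and -3.02 at Kcnq1 (2.63e-11).

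Between differentiated and undifferentiated ES cells 252 inside islands were higher and 168 lower after differentiation (3.51% and 1.92% of all islands). Without J1 these were 224 and 73 (2.66% and 0.925%), and the higher share was 1.44% within 200 bases, 4.36% at 201 to 1000 bases, 9.92% at 1001 to 5000 bases and 8.8% beyond. Without EB5 244 islands were called in either direction, without embryoid bodies, endoderm 2 or mesoderm 276, 267 and 275, and without retinoic acid cells 790. Mmp9 and Tfap2e stayed higher without J1, by 0.81 (adjusted p = 0.0442) and 1.10 (adjusted p = 0.00389). At Peg3 the difference was -1.54 (adjusted p = 0.0485), and without J1 it was -0.33 (adjusted p = 0.563). Setting differentiated ES cells against embryos gave 841 higher and 846 lower islands (11.8% and 9.29% of all islands), with the higher share again peaking at 1001 to 5000 bases (30.8%, against 8.67% within 200 bases). All 10 islands named above for the comparison with adult tissue differed from embryos in the same direction, among them Slitrk1 by 2.58, Slc32a1 by 2.40, Kcnq1 by -3.19 and Peg10 by -2.88. The comparisons with adult tissue share the adult arrays, and these share the differentiated ES arrays, so they are not independent.

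Embryos differed from adult tissue at 450 higher and 286 lower inside islands, against 5.17% and 3.47% of all islands. The higher islands were mostly at gene starts (6.81% within 200 bases and 3.17% beyond 5000 bases), and the lower islands mostly away from them (1.98% within 200 bases, 12.1% at 1001 to 5000 bases and 9.98% beyond). Of the 286 lower islands 60 went from above 0.75 in adult tissue to below 0 in embryos. Beyond 5000 bases the 85 lower islands moved from a median of 1.45 to 0.18. Of 210 islands of homeobox genes 0 were higher and 17 lower, of 164 of other developmental transcription factors 1 and 29, and of 38 of ribosomal protein genes 5 and 0, beside 5.99% and 3.81% of all inside islands. In that order of lists 96, 89 and 38 islands lay within 200 bases of a start, beside 77.4% of all inside islands. At 1001 to 5000 bases lay 62, 28 and 0 islands, beside 6.71%. The part of distance in these list counts was not tested. No list was tested as a set here either.

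Zfp316, a zinc finger gene, had embryo values of 0.14, -0.49, -0.26, -0.22 and -0.16 in order of age against 1.67, 2.77 and 3.11 in adult tissue (difference -2.80 ± 0.282, adjusted p = 2.89e-07). Evi5l, which encodes a GTPase-activating protein for Rab proteins, with its island far inside the gene but near another listed start, was at -0.05, -0.64, -0.41, -0.20 and 0.09 against 1.57, 2.97 and 3.58 (-3.12 ± 0.318, adjusted p = 2.89e-07). In differentiated ES cells Evi5l was at 1.77 to 2.30, above all embryos. Tmed4, a gene of vesicle transport, was at 0.67, 0.64, 0.44, 0.26 and 0.11 against -0.71, -0.59 and -0.40 (0.99 ± 0.102, adjusted p = 2.96e-07), and Ocel1 was higher by 0.97 (adjusted p = 2.85e-05). No embryo array shared a software version with an adult array. With the software version as a block 5 inside islands were called, with the slide 1, and with the scan day 0 (413 at an unadjusted p under 0.05). All 4 islands named here lost their calls with the slide or the scan day as a block, and without the embryo of 9.5 days 437 inside islands were called in place of 736.

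Few islands differed between teratomas and adult tissue. There were 16 higher and 2 lower inside islands (0.176% and 0.0147% of all islands), with 612 at an unadjusted p under 0.05. Without teratoma 2 the calls fell from 18 to 3, without teratoma 1 to 6, and without the array labelled J1 they were 30. Lrrc8d, a subunit of a volume-regulated anion channel, was at 2.35 and 2.25 against -0.46, 0.15 and 1.93 (difference 2.00 ± 0.402, adjusted p = 0.0158). Atf4, a transcription factor of the stress response, was at 1.43 and 1.33 against -0.66, -0.56 and -0.25 (1.92 ± 0.397, adjusted p = 0.0203). At Atf4 the EB5 cells were at 2.19 and endoderm and mesoderm at 0.95, 1.27 and 1.11, and TT2 was at -0.23, embryoid bodies at -0.73 and retinoic acid cells at -0.46. The lower islands were Tescl, at 0.11 and 0.32 against 1.17, 1.61 and 2.13 (-1.41, adjusted p = 0.00372), and Borcs6, a gene of lysosome positioning, at -0.90 and -0.92 (-0.44, adjusted p = 0.0345).

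Among the 8 adult tissues 6 inside islands differed in the F test of limma (0.0808% of all islands), and 354 did so at an unadjusted p under 0.05, where 3.95% of all islands did. Dnm1, which encodes the endocytic GTPase dynamin, had an island 5526 bases from the start (chr2:32167514-32168478 on mm9) at 2.70 and 2.22 in colon and between -0.46 and 0.45 in the other tissues (adjusted p = 0.00369). Gpx7, a peroxidase gene (chr4:108078847-108079517 on mm9), was at 1.78 and 1.85 in pancreas, 0.59 and 0.71 in colon and at most 0.39 elsewhere (adjusted p = 0.00322), and at 1.52 in β cells, 1.81 in Min6 and 1.64 in aTC. The other 4 were named after their values were seen. Mnx1, a homeobox gene of the pancreas and motor neurons, was at 2.70 and 1.96 in colon, 2.69 and 2.84 in pancreas and -0.96 to 0.63 elsewhere (adjusted p = 0.012), and at 2.02 in β cells. Vipr1, a receptor for vasoactive intestinal peptide, was at 2.51 and 2.18 in colon, 1.23 and 1.83 in pancreas and -0.59 to 0.36 elsewhere (adjusted p = 0.004). Lhx3, a homeobox gene, was at 1.57 and 1.50 in pancreas and -0.71 to 0.18 elsewhere (adjusted p = 0.04) but at 0.16 in β cells. Zfp423, a zinc finger gene, split the tissues, with kidney, lung, muscle and spleen at 2.19 to 3.12 and colon, pancreas, brain and liver at 0.93 to 1.42 (adjusted p = 0.043). Leaving out colon 1, pancreas 2 or pancreas 1 brought the count to 1, 2 and 3. Colon and pancreas were the tissues with only male arrays, and sex and tissue cannot be told apart there. On the array labelled J1, Gpx7, Mnx1, Vipr1 and Lhx3 were at 1.71, 2.91, 1.68 and 1.35, close to the pancreas arrays, and Dnm1 was at 0.24. In the same order of those islands EB5 was at -0.36, 0.65, -0.02 and 0.22, and TT2 at -0.44, 1.46, 0.18 and 0.48.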

How the data were processed

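DNA of 34 samples was profiled by mDIP on a 2-colour CpG island array of 97651 probes (88737 in the latest grid), with bound DNA in Cy5 and input in Cy3. The deposited scanner files, made by the authors with Agilent Feature Extraction (9.5.3.1, 10.5.1.1, 10.7.3.1 and 10.9.1.1), hold for each spot the processed and median signal intensities and the log10 ratio of red over green after background subtraction and linear dye normalisation. The deposited value table holds, per the methods, a Z score for each probe within an array, taken according to probe melting temperature by the authors; it served as an alternative. Genome coordinates are those of the array design, which the headers of 6 arrays name as mm9, and 1 scanner file carries the probe annotations.

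Control and flagged spots were left out, log10 ratios were standardised to mean 0 and SD 1 on each array, and island scores were means over at least 3 probes with gaps of at most 500 bases. Scores were fitted with lmFit and eBayes of limma 3.58.1 (R 4.3.3, data.table version 1.17.8), with 29 arrays in 1 fit for the comparisons between classes, 31 with the teratomas and 16 for the F test among tissues, and p-values were adjusted by Benjamini-Hochberg over all 13616 islands. Tables and figures were made with Python 3.11.15 (pandas 2.3.3, numpy 2.4.6, matplotlib 3.10.9). The fits were tested on simulated scores, independent between arrays, in which 200 of 13616 islands were changed by 1. The F test among tissues recovered 11% of them. Comparisons between classes recovered 76% (teratomas) to 95.5% (differentiated ES cells against adult tissue). Of the calls, 4.5% to 9.34% fell on unchanged islands.

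Gene names of 6022 islands were current RefSeq symbols, 1365 were updated through a synonym and 127 were kept as on the array. Promoter windows are RefSeq sequences on GRCm38.p6, matched by gene, and no mm9 coordinate was converted. The number of arrays limits the precision. Fits between classes treated every array of a class as a separate unit. Arrays of the same tissue, or of cells from the same ES line, were not modelled as groups, so those p-values ignore this sharing. Replicate numbers were taken from the labels. The main fits did not pair samples by them. Deviations of same-numbered arrays correlated at -0.304 to 0.466 in 36 pairs of groups (tissues and teratomas), 11 of them over 0.1. Whether same-numbered arrays shared an animal was not tested. The members, the 12 gene lists and the tests were chosen with earlier results of these data known. Named islands are, with no overlap between classes, the 5 highest and 5 lowest differences for differentiated ES cells and 2 and 2 for embryos, undifferentiated ES cells and teratomas; the leading island of each tissue; 3 for the pancreatic lines; 3 and 3 extremes of adult tissue; the leading island of each gene list; and 3 and 1 extremes of the pairs with promoter islands. The text says where an island was picked in another way. Certain items, among them 2 gene lists, are not reported here. Alternatives covered standardisation, background correction, the value table, dim probes, the island definition, batches, the arrays included and the test.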

Additional observations from a re-analysis of the deposited data

Results flagged for a closer look

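In groups of 5 arrays, 9 of 104 had a highest or lowest array set apart from the other arrays by more than the Dixon limit, where chance gives about 1 in 20. In the embryos this was the array of 8.5 days, lowest at Slitrk1 (-1.20) and at Grb10 (2.07). Among differentiated ES cells endoderm 1 was lowest at Evi5l (1.77), Hsf5 (1.63) and Myo10 (2.29) and highest at Pou3f3 (0.429). Retinoic acid cells were lowest at Lrp8 (0.755), highest at Plec (3.65), and lowest in the share of islands within 200 bases of a start that were methylated (3.41%).

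The 10 islands named for differentiated ES cells also differed between those cells and embryos in limma. The difference between the classes was 2.25 at Atf7ip, 2.58 at Slitrk1, 2.40 at Slc32a1, 2.22 at Mmp9 and 2.15 at Tfap2e. It was -3.38 at Peg3, -3.29 at Zrsr1, -3.19 at Kcnq1, -2.88 at Peg10 and -2.93 at Grb10, and in each case all 5 differentiated ES arrays lay on the same side of all 5 embryos. Between differentiated and undifferentiated ES cells 3 of the 10 differed, Mmp9 by 1.27, Tfap2e by 1.58 and Peg3 by -1.54. Without the array labelled J1 the differences at Mmp9, Tfap2e and Peg3 were 0.81, 1.10 and -0.33, and the last was no longer called (adjusted p = 0.563).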

How the results depend on the processing

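The 10 islands named for differentiated ES cells against adult tissue kept their direction and call under every alternative in which they were scored. Slitrk1 was scored in 40 alternatives and Peg3 in 43. Counts of called inside islands moved more. Differentiated ES cells against adult tissue gave 1740 calls, and 853 where all probes had to be INSIDE, 941 with normexp background correction on median signals, 793 from the deposited table (which scores fewer islands), 1099 with at least 5 probes and 1154 with the slide as a block. Embryos against adult tissue gave 736, and in the same order of settings 303, 76, 312 and, with the slide, 1; the scan day as a block gave 0, the software version 5 and the slide as a random block 392. Undifferentiated ES cells against adult tissue gave 210, and 0 with median-centred log2 ratios (766 at an unadjusted p under 0.05), 3 with normexp, 992 from the table, 132 with at least 5 probes, 0 with the scan day (285 unadjusted), 45 with the software version, 0 by the methods' t-test (1315 unadjusted) and 54 from the arrays of both classes alone. Differentiated against undifferentiated ES cells gave 420, and 258 where all probes were INSIDE, 130 with log2 ratios, 33 with normexp, 836 from the table, 247 with at least 5 probes, 109 with the slide, 0 by the methods' t-test (1012 unadjusted) and 1 from the arrays of both classes alone. Differentiated ES cells against embryos gave 1687, and 850 with all probes INSIDE, 436 with normexp, 728 from the table, 1071 with at least 5 probes, 59 with the slide, 207 with the scan day and 104 with the software version. Teratomas gave 18, and 9 with all probes INSIDE and 10 with the software version. The F test among tissues gave 6, and 0 with normexp (209 unadjusted). Calls in differentiated ES cells were 58.3% higher, or 78.2% with normexp, and against embryos 49.9%, or 82.6% with normexp; against undifferentiated ES cells they were 60.0% higher, or 92.3% with log2 ratios. The excess of higher over lower calls beyond 5000 bases was -11.3 points and turned to 3.52 with normexp. The cause was not tested for these shifts.

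Leaving out 1 array at a time gave 1367 to 1899 calls for differentiated ES cells against adult tissue, 437 to 845 for embryos, 0 to 713 for undifferentiated ES cells, 244 to 790 for differentiated against undifferentiated ES cells, 1282 to 1916 for differentiated ES cells against embryos, 3 to 30 for teratomas and 1 to 9 among tissues. With the replicate number as a block, teratomas gave 33 calls in place of 18 and tissues 5 in place of 6, and Lrrc8d and Borcs6 lost their calls.

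Islands above 0.75 on all adult arrays numbered 738, and 266 with normexp, 280 from the table, 353 without dim probes and 311 with at least 5 probes. Islands below 0 on all adult arrays numbered 2310, and 1426 from the table, 429 with all probes INSIDE, 4357 with thresholds 0.25 higher and 571 with thresholds 0.25 lower. Those of them gained in differentiated ES cells numbered 72, and under the same 4 settings 35, 44, 118 and 16; they were 146 with normexp, 44 without dim probes, 43 with at least 5 probes and 120 from adult replicate 1 alone. Gains in the pancreatic lines numbered 167, and 69 with all probes INSIDE and 275 and 43 with the higher and lower thresholds. The median of inside minus promoter islands was 0.212, and 0.104 with normexp, 0.775 from the table, 0.149 with gaps of at most 250 bases, 0.383 with all probes INSIDE and 0.308 with log2 ratios.

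Normexp on mean signals was not run, since some scanner files hold only median signals, and the version on median signals, the slide as a random block and the counting of ties were chosen after seeing the data. A slide or scan day block could not be fitted for teratomas, nor any of the batch blocks for tissues. Signal over background limits the dimmest probes, and scores of different arrays share no absolute scale.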
